A study of Mus musculus with 37 samples.

Results

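The 8 keratins followed here are the intermediate filament proteins that mark the cells of the mouse mammary epithelium: Krt5, Krt14, Krt15 and Krt17 of the basal layer, and Krt7, Krt8, Krt18 and Krt19 of the luminal layer. Each was represented on the array by 1 probe set annotated with that symbol alone, so the 8 members are 8 of 18820 named genes. Total RNA of mammary tissue from female BALB/c mice was hybridised to 37 arrays, 1 per sample. The mice had 1 inguinal gland cleared of its epithelium while young, in the sham group as in all others, and the intact gland of the opposite side was profiled. They were exposed at 10 weeks of age to sham irradiation, to 100 cGy of sparsely ionizing gamma rays, or to 30 cGy or 10 cGy of densely ionizing silicon ions (350 MeV/amu), called Si below. Glands were taken 1, 4 and 12 weeks later, at 11, 14 and 22 weeks of age. Every group had 3 arrays, except sham at week 4, which had 4. The week 1 glands were collected where the mice had been irradiated and the later ones after transport back to the home facility, so week after exposure and place of collection cannot be told apart. The labels do not say that replicates were separate mice, so each p-value covers the spread between these arrays, which may be technical.

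Keratins form filaments as obligate pairs of a type I protein (Krt14, Krt15, Krt17, Krt18, Krt19) and a type II protein (Krt5, Krt7, Krt8). In the mammary gland the pair of Krt5 and Krt14 fills the basal, myoepithelial cells that contract to eject milk, and the pair of Krt8 and Krt18 fills the luminal cells that line the ducts and make milk. Krt7 and Krt19 accompany Krt8 and Krt18 in luminal cells of simple epithelia, Krt15 accompanies Krt5 and Krt14 in basal layers, and Krt17 is a basal keratin that epithelia induce under stress. The filaments are anchored in desmosomes and hemidesmosomes.

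Promoters are shown for the 4 keratins that had a usable entry: Krt5, Krt7, Krt8 and Krt18. Krt7 was the one that differed between weeks, and Krt5 and Krt8 are its fellow type II genes. The levels of Krt18 followed those of Krt8 most closely. RefSeq (GRCm38.p6) held an entry for 5 of the 8 members, and the window given for Krt14 lay inside the gene and is not shown. Each line gives the 150 bases before the annotated start, 5′ to 3′ on the strand of the gene, and capitals mark matches to the motifs named below.
Krt5 (chr15:101712906-101713055, minus strand): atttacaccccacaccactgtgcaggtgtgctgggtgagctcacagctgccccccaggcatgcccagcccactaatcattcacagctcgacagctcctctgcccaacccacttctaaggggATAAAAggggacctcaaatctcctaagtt
Krt7 (chr15:101412253-101412402, plus strand): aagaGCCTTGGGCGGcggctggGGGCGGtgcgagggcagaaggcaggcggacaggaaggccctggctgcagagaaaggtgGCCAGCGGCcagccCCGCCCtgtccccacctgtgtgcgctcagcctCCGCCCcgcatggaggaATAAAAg
Krt8 (chr15:102004343-102004492, minus strand): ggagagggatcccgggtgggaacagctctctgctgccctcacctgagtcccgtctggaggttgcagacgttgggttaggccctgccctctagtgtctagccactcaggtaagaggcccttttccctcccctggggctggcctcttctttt
Krt18 (chr15:102028066-102028215, plus strand): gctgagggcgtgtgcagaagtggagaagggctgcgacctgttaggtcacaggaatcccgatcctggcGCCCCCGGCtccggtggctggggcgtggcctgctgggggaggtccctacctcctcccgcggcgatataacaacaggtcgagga
The motifs were searched on both strands: ATAAAA, a variant of the TATA box, TATAAA itself, GGGCGG, the GC box, GCCNNNGGC, a form of the AP-2 motif, CCAAT, the CCAAT box, and TGANTCA, the AP-1 motif. The Krt5 window held ATAAAA at bases -29 to -24 from the start. The Krt7 window held ATAAAA at bases -7 to -2, GGGCGG at 4 places and GCCNNNGGC at 2, the first of which overlaps a GC box, while the Krt18 window held GCCNNNGGC once and the Krt8 window matched none of the 6. Of 32851 mouse promoters of the same length, 10.1% held ATAAAA, 28.6% GGGCGG and 9.61% GCCNNNGGC. The exact TATAAA was in 7.57% of these promoters, the CCAAT box in 24.5% and the AP-1 motif in 4.24%, and none of the 4 windows held any of them. Krt8 and Krt18 are neighbours on chromosome 15 and lie head to head, on opposite strands.

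Values are the deposited log2 expression values, on which a difference of 1 is a doubling. All 8 keratins lay above the level (4.04) that the lowest 30% of named genes did not pass, and 13174 genes were tested. The epithelial markers Epcam, Cdh1, Trp63 and Elf5 lay above it, at means of 9.16, 8.52, 6.80 and 7.31, and the epidermal genes Krt1, Ivl and Lor below it, at means of 3.80, 3.16 and 3.35. The epidermal keratin Krt10 lay just above it, at 4.26, and 4 of the 7 epidermal genes on the array were tested. Of 32 other keratins on the array, 6 passed. Lymphocyte and skeletal muscle genes varied widely between arrays, the T cell gene Cd3e from 4.42 to 10.2 and the muscle gene Ckm from 5.81 to 11.7. Sham replicate 3 of week 1 and sham replicate 1 of week 4 resembled the other arrays least, and the first held the lowest value of Krt14, Krt7, Krt8 and Krt19 and the second that of Krt5 and Krt17. The keratin comparisons and marker lists that moved most with them are given with and without them. In whole tissue, fewer cells of a type and less RNA per cell cannot be told apart.

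The keratins varied more between glands than most genes. Their standard deviations over the 37 arrays ran from 0.37 for Krt14 to 0.54 for Krt15, against a median of 0.22 for all genes tested, and lay between the 88.3rd and the 95.6th percentile of them. Each keratin spanned between 1.71 (Krt18) and 2.62 (Krt17) log2 units from its lowest to its highest array. Much of this lay inside the groups: the sham glands of week 1 alone covered Krt8 values of 11.42, 10.97 and 9.65, and those of week 12 values of 11.45, 11.26 and 9.94.

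**Figure D1:**
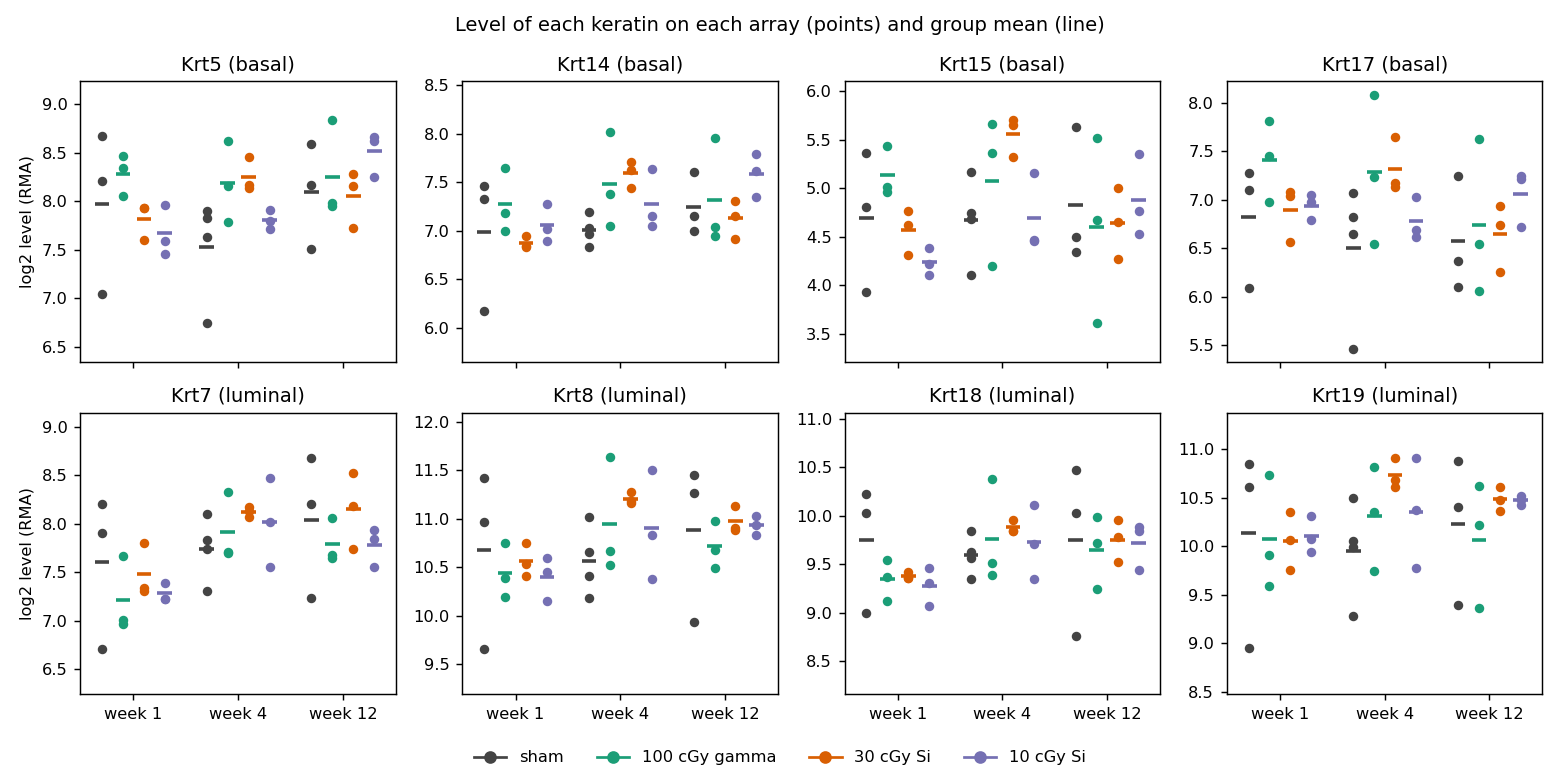
Log2 level of each keratin on each of the 37 arrays (points) and the mean of each group (short lines), by week after exposure (x axis) and treatment (colour), basal keratins above and luminal keratins below, with a separate y axis for each gene. The sham points spread widely (Krt19 from 8.95 to 10.85 at week 1), and the 30 cGy Si points at week 4 lie close together, above all sham points of that week for 6 of the 8 keratins.

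Whether irradiation changes the keratins of the gland was asked by setting each exposure against the sham glands of the same week. No keratin passed an adjusted p of 0.05 (limma, Benjamini-Hochberg over 13174 genes) in any of the 9 comparisons, which make 72 keratin tests. The lowest adjusted p was 0.573. The differences ran from -0.47 (Krt18, 10 cGy Si, week 1) to 0.88 (Krt15, 30 cGy Si, week 4), and 6 of the 72 passed an unadjusted p of 0.05, all of them basal keratins at week 4. At week 1 none did, where 7.82% of all genes did after gamma rays, 12% after 30 cGy Si and 5.4% after 10 cGy Si. The 3 exposures of a week share its sham glands, so their values are given side by side and are not independent.

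At week 4 all 8 keratins had higher means than sham after each of the 3 exposures, by the most after 30 cGy Si. There the basal keratins differed by a median of 0.77 and the luminal ones by 0.51, against 0.029 over all genes tested. After gamma rays the medians were 0.57 and 0.26, and after 10 cGy Si 0.28 and 0.31. The share of all genes with means above sham was 56.7% after 30 cGy Si, 58% after gamma rays and 56.8% after 10 cGy Si. The share called at an adjusted p of 0.05 was 0% in all 3 comparisons, so no gene of any kind passed there. At an unadjusted p of 0.05 the shares were 8.08% after 30 cGy Si, 5.56% after gamma rays and 3.17% after 10 cGy Si.

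Among the basal keratins at week 4, Krt5, the type II partner of Krt14, read 6.74, 7.90, 7.83 and 7.63 in the 4 sham glands. It read 8.16, 8.46 and 8.14 after 30 cGy Si and 8.16, 8.62 and 7.79 after gamma rays. All 3 Si glands lay above every sham gland, and 1 gamma gland lay among them. The difference was 0.73 ± 0.30 (SE, adjusted p = 0.573) for 30 cGy Si and 0.66 ± 0.30 (adjusted p = 0.798) for gamma rays.

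Krt14, the type I partner, read 6.83, 6.97, 7.03 and 7.19 in sham glands and 7.44, 7.63 and 7.71 after 30 cGy Si, again without overlap. The difference was 0.59 ± 0.26 (adjusted p = 0.579). Gamma glands at 7.38, 8.01 and 7.05 overlapped sham, with a difference of 0.47 ± 0.26 (adjusted p = 0.798).

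Krt15 showed the widest difference of the 8. Sham glands read 4.11, 4.68, 5.17 and 4.75, and 30 cGy Si glands 5.65, 5.70 and 5.33, all above sham, a difference of 0.88 ± 0.38 (adjusted p = 0.574). Gamma glands were scattered, at 5.36, 5.66 and 4.20, and differed by 0.39 ± 0.38 (adjusted p = 0.827).

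Krt17, the stress-inducible basal keratin, read 5.47, 6.64, 7.07 and 6.82 in sham glands. After 30 cGy Si it read 7.17, 7.65 and 7.13, and after gamma rays 7.24, 8.08 and 6.54. The Si glands stood above all sham glands, by a mean of 0.82 ± 0.38 (adjusted p = 0.590), and the gamma glands differed by 0.79 ± 0.38 (adjusted p = 0.798) with overlap. Sham replicate 1, the lowest sham gland for all 4 basal keratins, widened each of these differences. Without it the basal median was 0.50 after 30 cGy Si, 0.41 after gamma rays and -0.022 after 10 cGy Si.

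Among the luminal keratins at week 4, Krt8 and Krt19 lay furthest from sham after 30 cGy Si. Krt8, the type II keratin of the luminal pair, read 10.18, 10.41, 10.65 and 11.02 in sham glands and 11.18, 11.16 and 11.28 after 30 cGy Si, a difference of 0.64 ± 0.33 (adjusted p = 0.625) without overlap. Krt19, the small type I keratin of luminal cells, read 9.28, 9.99, 10.05 and 10.49 in sham glands and 10.61, 10.68 and 10.90 after 30 cGy Si, also without overlap, a difference of 0.78 ± 0.39 (adjusted p = 0.616). Krt7 and Krt18 overlapped sham, with differences of 0.38 ± 0.30 and 0.29 ± 0.30 (adjusted p = 0.750 and 0.814). After gamma rays the 4 luminal keratins differed by 0.17 to 0.38, and without gamma replicate 2 of week 4, which held the highest Krt14, Krt17 and Krt8 values of all arrays, the luminal median was -0.0032 and the basal median 0.30.

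In all, 6 of the 8 keratins had 30 cGy Si glands entirely above the sham glands of week 4, where 6.19% of all genes tested did so. After gamma rays no keratin had groups that were apart in either direction, where 3.92% of genes did. The 4 basal keratins passed an unadjusted p of 0.05 after 30 cGy Si, where 6.1% of genes did so with higher means. Krt5 and Krt17 did so after gamma rays, where the share was 3.66%. After 10 cGy Si no keratin passed it, and differences ran from 0.018 ± 0.38 for Krt15 to 0.40 ± 0.39 for Krt19. Its intervals (95%) reached 1.19 for Krt19 and 0.90 for Krt5, which include the 0.78 and 0.73 measured for these genes after 30 cGy Si.

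Other genes of the epithelium stood above sham in the same glands. Of the 20 keratin-free epithelial markers tested, 20 had means above sham after 30 cGy Si, with a median of 0.40, and 18 after gamma rays, with a median of 0.34. Without gamma replicate 2 of week 4 the latter were 16 and 0.13, and without sham replicate 1 of week 4 the medians were 0.33 and 0.25. None of them was called. Epcam, the epithelial adhesion molecule, differed by 0.54 ± 0.26 after 30 cGy Si (adjusted p = 0.601) and Cldn3, a tight junction claudin, by 0.57 ± 0.24 (adjusted p = 0.573). The mean of this list ran from 7.20 to 7.39 in the 3 Si glands and from 6.74 to 7.02 in the 4 sham glands. With that mean as a covariate, the basal and luminal medians after 30 cGy Si were 0.34 and 0.066 and those after gamma rays 0.27 and -0.12, and the sign of Krt7 and Krt18 turned after both exposures and that of Krt8 and Krt19 after gamma rays.

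Other marker lists differed between the same glands. The 12 proliferation genes tested were all above sham after 30 cGy Si, with a median of 1.17 and array means of 5.74 to 5.92 against 4.33 to 5.14 in sham, and none was called. The 14 lymphocyte genes had a median of -0.87 after 30 cGy Si and 1.06 after gamma rays, and the 15 skeletal muscle genes medians of -1.21 and -1.54. Without sham replicate 1 of week 4 the lymphocyte medians were -1.50 and 0.47, the skeletal muscle medians -2.61 and -2.85, and the proliferation median after 30 cGy Si 0.91. Of the 4 epidermal genes that passed the filter, 3 were above sham after 30 cGy Si, with list means of 4.62 to 5.41 against 4.51 to 4.79. The part of these cell types in the keratin values was not tested.

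**Figure D2:**
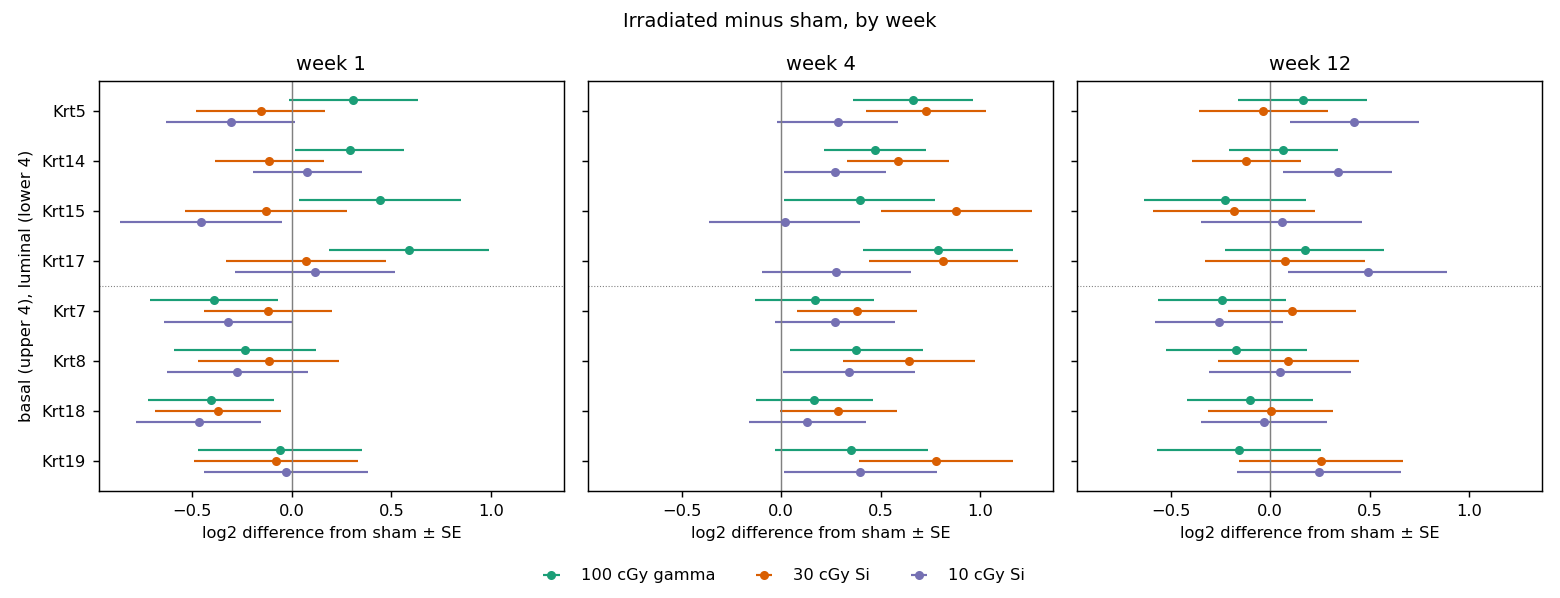
Mean log2 difference from the sham glands of the same week (x axis) for each keratin (y axis), for 100 cGy gamma rays, 30 cGy Si and 10 cGy Si (colours) at weeks 1, 4 and 12 (panels); bars are ± 1 SE. At week 4 all points lie above 0, up to 0.88, while at week 1 the basal keratins lie above and the luminal keratins below 0 after gamma rays.

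At week 1 after gamma rays the keratin means lay on opposite sides of sham in the 2 layers. All 4 basal keratins had higher means than sham, by 0.29 to 0.59, and all 4 luminal keratins lower ones, by -0.41 to -0.06. No keratin was called, where 0.0228% of all genes were, and 51.9% of all genes had means above sham. Krt17 read 7.82, 7.45 and 6.98 in gamma glands and 7.27, 7.11 and 6.09 in sham glands, a difference of 0.59 ± 0.40 (adjusted p = 0.776). Krt18 read 9.37, 9.54 and 9.12 in gamma glands and 10.22, 10.03 and 9.00 in sham glands, a difference of -0.41 ± 0.32 (adjusted p = 0.807). Both genes overlapped between the groups, and sham replicate 3 lay below all gamma glands for both.

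The differences of both layers shifted with that sham gland. Without it the basal median after gamma rays went from 0.38 to -0.029, with Krt5 at -0.16 and Krt14 at -0.11. Krt15 at 0.056 and Krt17 at 0.23 stayed above sham. The luminal median went further below sham, from -0.31 to -0.77. After 30 cGy Si the keratins differed from sham by a basal median of -0.12 and a luminal median of -0.12, and without the same gland by -0.52 and -0.65. After 10 cGy Si the medians were -0.12 and -0.30, and -0.55 and -0.78 without it. Of the 8 keratins, 1 was above sham after 30 cGy Si, where 55.2% of genes were, and 2 after 10 cGy Si, where 52.2% were. With the epithelial mean as a covariate the basal and luminal medians were 0.68 and 0.0030 after gamma rays, 0.22 and 0.24 after 30 cGy Si and 0.20 and 0.078 after 10 cGy Si. The share of genes called was 0.0228% for 30 cGy Si and 0.0835% for 10 cGy Si, and no keratin was among them with or without that gland. Of the 20 keratin-free epithelial markers, 0 had means above sham after gamma rays, with a median of -0.22, while 15 of 19 other basal markers did, with a median of 0.15. Without the same sham gland 8 of these 19 did, with a median of -0.10, and the median of the epithelial markers was -0.61. Of 9 vessel smooth muscle and pericyte markers, which include Acta2 and Myh11 of the basal list, 8 were above sham, with a median of 0.12. Of 10 fibroblast markers 8 were, with a median of 0.25. Without that gland these counts were 7 and 6, with medians of 0.053 and 0.086. Cnn1, the smooth muscle calponin of myoepithelial cells, differed by 0.66 ± 0.28 (adjusted p = 0.575) with that gland and by 0.33 ± 0.29 (adjusted p = 0.867) without it. The 14 lymphocyte genes had a median of -1.02 after gamma rays, and 13 of 15 skeletal muscle genes lay above sham, with a median of 0.77. Without sham replicate 3 these medians were -0.037 and 1.66. The part of these other cell types in the keratin values was not tested.

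At week 12 the differences of the keratins from sham ran from -0.26 (Krt7, 10 cGy Si) to 0.49 (Krt17, 10 cGy Si), each with an SE between 0.27 and 0.41, and no keratin passed even an unadjusted p of 0.05, where 2.82% of genes did after gamma rays, 5.28% after 30 cGy Si and 4.7% after 10 cGy Si. The share of all genes called was 0% in each of the 3 comparisons. After 10 cGy Si the 4 basal keratins were all above sham, with a median of 0.38, where 55.1% of genes were. Krt5 read 8.66, 8.25 and 8.62 in these glands and 8.59, 8.17 and 7.51 in sham glands, with overlap, a difference of 0.42 ± 0.32 (adjusted p = 1.00). Without sham replicate 3 of week 12, which held the lowest of these Krt5 values, the basal median was 0.17, the luminal median -0.48 and 3 of the 8 keratins were above sham. After gamma rays all 4 luminal keratins had lower means than sham, with differences of -0.24 to -0.10, where 52.2% of genes had higher ones. After 30 cGy Si all 4 had higher means, with differences of 0.0018 to 0.26, where 51.5% of genes did. Without the same sham gland the luminal medians were -0.62 after gamma rays and -0.34 after 30 cGy Si, against -0.16 and 0.10 with it.

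Averaged over the 3 weeks, 0 of 24 keratin tests passed, and the shares of all genes called were 0% for gamma rays, 0.0304% for 30 cGy Si and 0% for 10 cGy Si. The lowest adjusted p was that of Krt17 after 30 cGy Si, 0.515, at a difference of 0.32 ± 0.23. Krt17 and Krt5 after gamma rays, at 0.52 ± 0.23 (adjusted p = 0.901) and 0.38 ± 0.18 (adjusted p = 0.924), were the 2 keratins with an unadjusted p below 0.05, where 5.36% of genes had one. After gamma rays all 4 basal keratins averaged above sham, with a median of 0.33, where 57% of genes did, and 3 of the 4 luminal keratins below it, with a median of -0.061. Without sham replicate 3 of week 1 these medians were 0.18 and -0.21. A moderated F test of whether the effect of irradiation differed between weeks called none of the 8, each with an adjusted p of 1.00, and 0% of all genes. The unadjusted count was 0 of the 8 keratins and 3.96% of all genes.

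The weeks themselves were compared as the mean over the 4 treatments, which share the move between facilities. Krt7 rose from week 1 to week 4 by 0.55 ± 0.16 (adjusted p = 0.0100) and stood as far above week 1 at week 12, by 0.55 ± 0.16 (adjusted p = 0.00890), a 1.47-fold and a 1.46-fold change. It was the 1 keratin of 8 that was called in either comparison, where 25.8% and 35.5% of all genes were called, 11% and 15.2% of them upward as a share of all genes. The share of keratins called is therefore no higher than that of genes at large. No keratin was called between weeks 12 and 4, where 1.64% of genes were.

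At week 1 the Krt7 values ran from 6.71 to 8.20 over 12 arrays, with a median of 7.32. At week 4 they ran from 7.31 to 8.47 over 13 arrays, with a median of 8.02, and at week 12 from 7.24 to 8.68 over 12 arrays, with a median of 7.89. The ranges overlapped, but 12 of 13 arrays of week 4 and 11 of 12 of week 12 lay above the week 1 median. The difference between week 4 and week 1 was 0.14 in sham glands, 0.70 after gamma rays, 0.64 after 30 cGy Si and 0.73 after 10 cGy Si. From week 1 to week 12 it was 0.44, 0.58, 0.67 and 0.50 in the same order. The means of all 4 treatments were higher at both later weeks, but those of sham only with sham replicate 3 of week 1, the lowest Krt7 value of all arrays. Without it the sham differences were -0.31 and -0.011, and the 3 irradiated groups alone had higher means at both later weeks. In sham glands alone no keratin was called in either comparison, where 5.88% and 5.12% of genes were, nor between weeks 12 and 4, where 0% were. Whether the treatments differ in this rise was covered by the F test above, which did not call Krt7.

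Krt7 remained called under each of the 10 alternative settings and with each of the 37 arrays left out in turn. Without sham replicate 3 of week 1 the rises were 0.44 (adjusted p = 0.0219) and 0.43 (adjusted p = 0.0200). With the keratin-free epithelial mean as a covariate they were 0.46 and 0.35. Between weeks 1 and 4, 5 of 10 adipocyte and 6 of 10 endothelial genes were called lower, against 1944 of the 13174 genes tested. The skeletal muscle genes had medians of -0.026 at week 4 and -1.54 at week 12. The part of these cell types in the rise was not tested.

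The other 7 keratins did not pass between weeks. Of the luminal ones, Krt8 differed by 0.38 ± 0.17 (adjusted p = 0.108) and Krt18 by 0.30 ± 0.16 (adjusted p = 0.159) at week 4, and by 0.36 ± 0.18 (adjusted p = 0.121) and 0.28 ± 0.16 (adjusted p = 0.169) at week 12. Krt19 differed by 0.24 ± 0.20 and 0.22 ± 0.21. Over the 4 treatments all 4 luminal keratins thus had higher means at both later weeks, with medians of 0.34 and 0.32. Over all genes the medians were -0.0034 and -0.019, and 49.3% and 46.5% had higher means. Without sham replicate 3 of week 1 the luminal medians were 0.23 and 0.21. In sham glands alone Krt8, Krt18 and Krt19 differed by -0.11, -0.16 and -0.18 at week 4. Without that replicate the sham luminal medians were -0.58 at week 4 and -0.34 at week 12, and 0 of the 8 keratins were higher. With all arrays, 6158 and 6236 of the 13174 genes tested were higher in sham glands at weeks 4 and 12. The counts of all genes without that replicate are not given here. Of the basal ones, Krt14 differed over the 4 treatments by 0.29 ± 0.13 (adjusted p = 0.116) and 0.27 ± 0.14 (adjusted p = 0.128). On the same measure Krt15 differed by 0.34 ± 0.20 and 0.077 ± 0.20, Krt5 by 0.0074 ± 0.16 and 0.29 ± 0.16, and Krt17 by -0.048 ± 0.20 and -0.26 ± 0.20. Krt17 was lower at week 12 in 3 of the 4 treatments.

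Genes whose products hold keratin filaments were called between weeks about as often as genes at large. Of 20 desmosome, hemidesmosome and plakin genes tested, 3 were called as rising and 3 as falling from week 1 to week 4. From week 1 to week 12 the calls were 3 and 4. That is 30% and 35% of them, against 25.8% and 35.5% of all genes. The counts of genes that rose or fell below are likewise counts of called genes. Without sham replicate 3 of week 1, 2 rose and 2 fell at week 4, and 2 rose and 5 fell at week 12. Dsp, desmoplakin, which ties keratin filaments to desmosomes, rose by 0.44 ± 0.13 (adjusted p = 0.0126) and 0.51 ± 0.13 (adjusted p = 0.00317), and the desmosomal cadherin Dsc2 by 0.40 ± 0.12 (adjusted p = 0.0174) and 0.58 ± 0.13 (adjusted p = 0.000596). Jup, plakoglobin, fell by 0.46 ± 0.081 (adjusted p = 0.000114) at week 4. Of the 20 keratin-free luminal markers, 3 rose and 2 fell at week 4 and 5 rose and 1 fell at week 12, or 25% and 30% of them. Wfdc18, a secreted protein of luminal cells, rose by 1.41 ± 0.25 and 2.41 ± 0.25 (adjusted p = 9.65e-05 and 3.57e-08). Of the 20 keratin-free epithelial markers, 2 rose and 1 fell at week 4 and 6 rose and 1 fell at week 12, or 15% and 35%, and without the same sham gland 0 rose and 1 fell, and 4 rose and 1 fell. At week 4 after 30 cGy Si, where 0% of all genes were called and 56.7% were above sham, 0 of the 20 filament partners were called and 13 were above sham, Perp, a desmosomal membrane protein, by 0.73 ± 0.27 (adjusted p = 0.503).

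**Figure D3:**
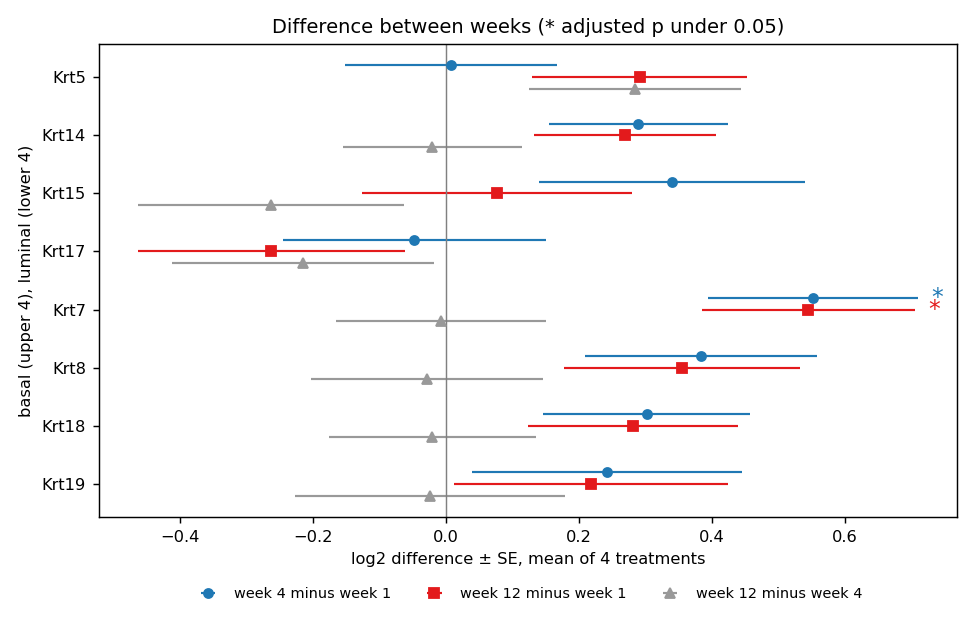
Log2 difference between weeks, as the mean over the 4 treatments (x axis), for each keratin (y axis): week 4 minus week 1 (circles), week 12 minus week 1 (squares) and week 12 minus week 4 (triangles); bars are ± 1 SE and asterisks mark an adjusted p under 0.05. Krt7 carries the only asterisks, at 0.55 in both comparisons with week 1, and the 4 luminal keratins lie near 0 between weeks 12 and 4.

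The order of the 12 groups was different for each keratin, and its steps were small. The highest group mean was that of 30 cGy Si at week 4 for Krt14, Krt15, Krt8, Krt18 and Krt19, of 10 cGy Si at week 12 for Krt5, of gamma rays at week 1 for Krt17 and of 30 cGy Si at week 12 for Krt7. The lowest was sham at week 4 for Krt5, Krt17 and Krt19, 10 cGy Si at week 1 for Krt15, Krt8 and Krt18, 30 cGy Si at week 1 for Krt14 and gamma rays at week 1 for Krt7. From lowest to highest group the means spanned 0.60 for Krt18 (9.28 ± 0.20 to 9.88 ± 0.068, SD, n = 3 each) to 1.32 for Krt15 (4.24 ± 0.14 to 5.56 ± 0.20, SD, n = 3 each). Groups next to each other in the order overlapped in all 11 steps for 7 keratins and in 10 of 11 for Krt8. A moderated F test over the 12 groups called none of the 8 keratins, with adjusted p from 0.232 for Krt7 to 0.848 for Krt19, where 15.8% of all genes were called.

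The balance of the 2 layers was described per array as the mean deviation of the 4 basal keratins, each from its own mean over the 37 arrays, minus that of the 4 luminal keratins. It was highest in gamma glands at week 1, at 0.94, 0.25 and 0.68, against -0.38, 0.10 and 0.09 in the sham glands of that week. The groups did not overlap, with means of 0.62 ± 0.35 and -0.06 ± 0.27 (SD, n = 3 each). Sham replicate 3, low in all 8 keratins, sat at 0.09 on this measure, since its basal and luminal deviations of -0.93 and -1.02 were alike. The Si groups of week 1 were near 0, at 0.03 ± 0.29 after 30 cGy and 0.07 ± 0.04 after 10 cGy. Because this score was built over the chosen keratins, it was not tested.

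At week 4 the balance was 0.14 ± 0.21 after gamma rays, 0.05 ± 0.20 after 30 cGy Si, -0.25 ± 0.30 after 10 cGy Si and -0.18 ± 0.36 in sham (SD, n = 4 for sham and 3 for the others). At week 12 it was 0.03 ± 0.35, -0.36 ± 0.34, 0.14 ± 0.19 and -0.18 ± 0.52 in the same order. All of these ranges overlapped that of the sham glands of the same week. Over all treatments 10 of 12 arrays were on the basal side at week 1, 6 of 13 at week 4 and 5 of 12 at week 12.

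**Figure D4:**
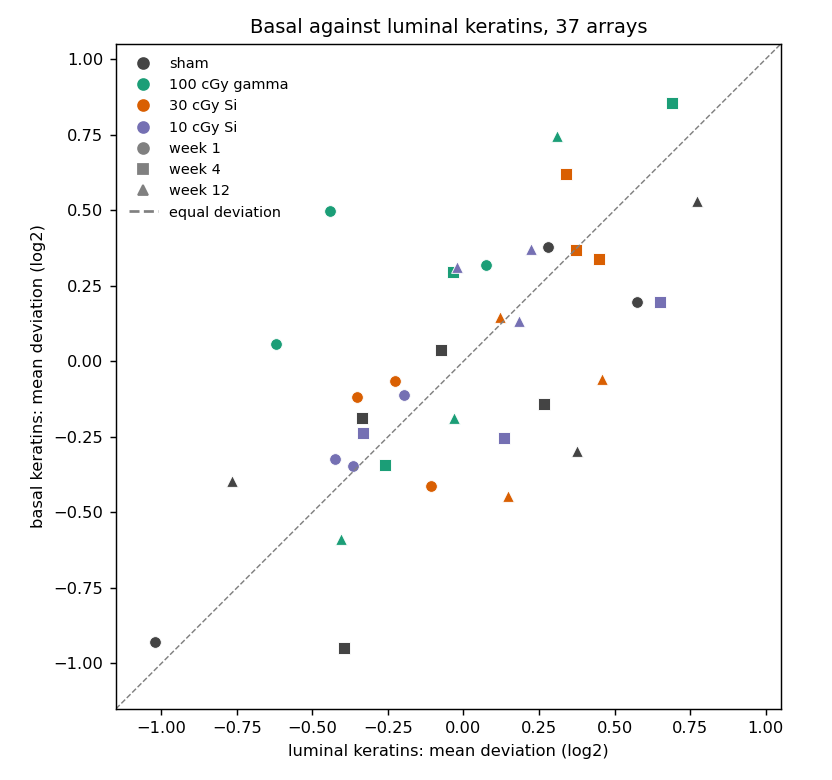
Mean deviation of the 4 basal keratins (y axis, log2) against that of the 4 luminal keratins (x axis, log2) on each of the 37 arrays, coloured by treatment and shaped by week; the dashed line marks equal deviation. The 3 gamma arrays of week 1 lie above the line by 0.25 to 0.94, and sham replicate 3 of week 1 lies at the lower left, close to the line.

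The levels of the 8 keratins varied together across the 37 arrays, with higher correlations within a layer than across layers. Pearson's r had a median of 0.733 over the 6 basal pairs (0.671 to 0.777), 0.869 over the 6 luminal pairs (0.737 to 0.917) and 0.596 over the 16 pairs across layers (0.158 to 0.721). Medians of Spearman's rho were 0.714, 0.885 and 0.585. Of the 28 pairs, 27 had an adjusted p under 0.05 (permutation test, 100000 resamples, two-sided, Benjamini-Hochberg over the 28 pairs), both for r and for rho. The exception was Krt17 with Krt7, at r 0.158 and rho 0.191 (adjusted permutation p = 0.350 and 0.256). The share of pairs of other genes that would pass was not computed, so this count has no background beside it.

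Krt8 and Krt18, the filament partners of luminal cells that sit side by side in the genome, had the highest r of all pairs, 0.917 (rho 0.913, permutation p = 1e-05, the smallest that these resamples can give). Krt8 with Krt19 reached 0.891 and Krt8 with Krt7 0.886. Among basal keratins the highest were Krt15 with Krt17 at 0.777 and the filament partners Krt5 and Krt14 at 0.777, with rho of 0.807 and 0.753. Krt15 and Krt19, which are neighbours in the type I cluster but belong to different layers here, had an r of 0.696. All pairs share the RNA and the normalization of each array.

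The pattern held within weeks. The medians within basal, within luminal and across layers were 0.826, 0.848 and 0.542 over the 12 arrays of week 1, 0.832, 0.906 and 0.753 over the 13 of week 4, and 0.807, 0.864 and 0.474 over the 12 of week 12. On deviations from the group means they were 0.798, 0.878 and 0.660. Leaving out the 2 arrays farthest from the median of the first keratin of each pair gave 0.658, 0.835 and 0.536.

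Each keratin also followed the mean of the 20 keratin-free epithelial markers, from r 0.508 (rho 0.545) for Krt17 to r 0.867 (rho 0.831) for Krt18, with adjusted permutation p of at most 0.00136 over the 8. When a straight-line fit on that mean was taken out of each keratin, a step chosen after the correlations had been seen, the median r was 0.583 within basal and 0.726 within luminal pairs and was 0.153 across layers. Krt5 then had a negative r with Krt18 (-0.383) and Krt7 (-0.324), and Krt14 a positive one with Krt19 (0.450). Of the 28 pairs, 17 had an adjusted permutation p under 0.05 on this measure. No share over other genes was computed for this count or for the 8 correlations with the epithelial mean.

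**Figure D5:**
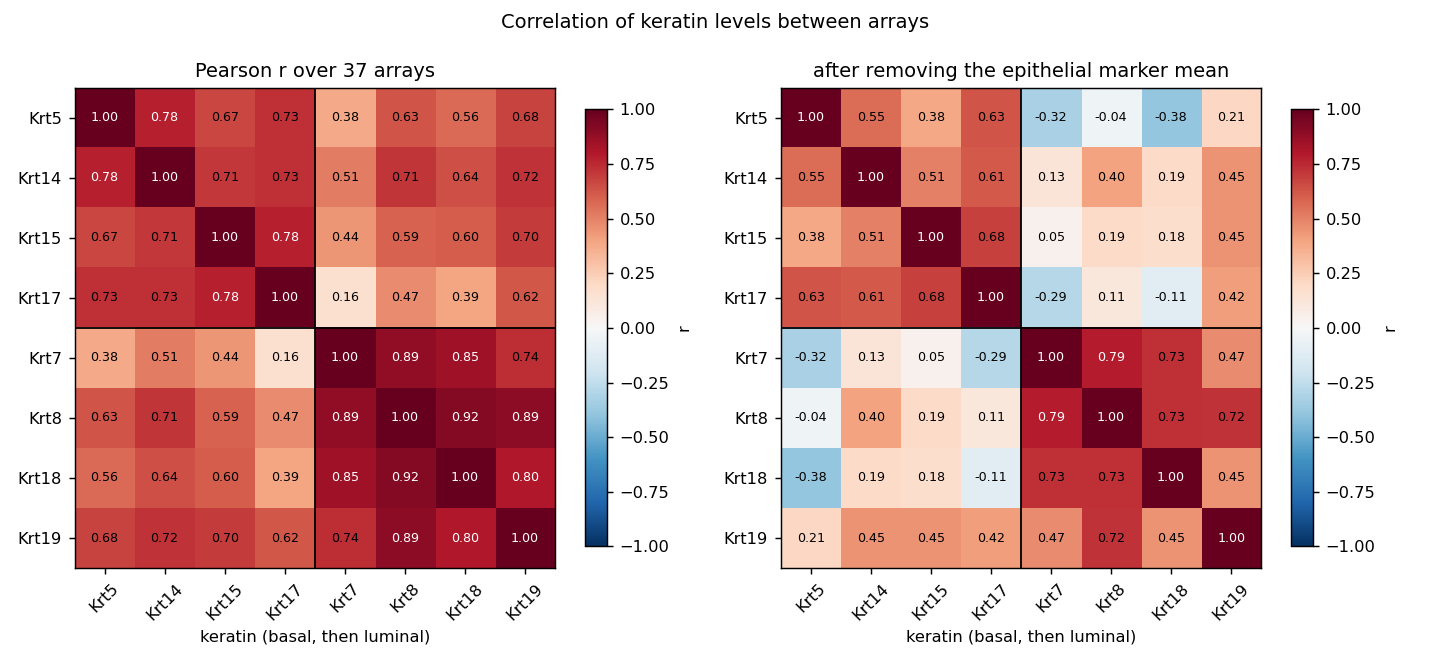
Pearson's r between the levels of each pair of keratins over the 37 arrays (left), and after a straight-line fit on the mean of the keratin-free epithelial markers was removed from each (right); rows and columns are the 8 keratins, basal then luminal, and colour gives r from -1 (blue) to 1 (red). On the left all pairs are above 0, with 0.92 for Krt8 and Krt18, and on the right the 2 blocks within a layer stand out from the pairs across layers, which reach down to -0.38.

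The genes whose levels were most like the keratins over the 37 arrays, of 12638 compared, are listed by layer and by keratin. They were ranked on their r with each layer's mean or each keratin, so the split by layer follows from the ranking. The basal keratin mean was followed most closely by Irx4, a homeobox factor (r 0.901), Trim29 (0.898), Moxd1 (0.868), the galectin gene Lgals7 (0.855), Nxn (0.853) and Pappa (0.850). The luminal keratin mean was followed by the tetraspanin gene Cd9 (0.929), the amino acid transporter gene Slc7a2 (0.893), Tmem54 (0.878), Epcam (0.873), the adaptor gene Ap1m2 (0.853) and Nipal2 (0.845). These are descriptions of the highest values among many genes, and the arrays share their RNA as above. Cd9 led the lists of Krt7 (0.862), Krt8 (0.894) and Krt18 (0.902), while Krt19 was nearest to Cacna1g (0.852), a calcium channel gene, Ern1 (0.849) and Enah (0.848).

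The basal keratins had less in common. Krt5 was nearest to Irx4 (0.878), Large2 (0.876) and Tspan2 (0.866). Krt14 was nearest to Perp (0.806), Trim29 (0.803) and Atp2a2 (0.802), and Krt15 to Sdc1 (0.835), the syndecan of epithelial cells, Kcnmb1 (0.831) and Lgals7 (0.814). Krt17 was nearest to Acta2 (0.859), the smooth muscle actin of myoepithelial and vessel cells, to Col1a2 (0.848), a collagen gene of fibroblasts, and to Irx4 (0.833). Behind Cd9, Krt7 and Krt8 had Slc7a2 (0.845 and 0.869) in common, followed by Gtf2e2 (0.831) for Krt7 and Epcam (0.861) for Krt8. Krt18 had Ap1m2 (0.848) and Dsp (0.846) behind Cd9.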

How the data were processed

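Per the submitters' processing notes, the deposited log2 values were made by the authors with RMA and the oligo package (versions not given in the sources used here). RMA pulls arrays to a common distribution, so only relative changes are seen, and the number of arrays limits the precision. Of 35556 probe sets, 21218 had 1 gene symbol in the platform annotation. The probe set with the highest mean stood for a gene, and genes above the 30th percentile of means were tested. The 12 group means were fitted with limma 3.58.1 in R 4.3.3 (lmFit and eBayes, 25 residual degrees of freedom, 3 or 4 arrays per group), two-sided, with Benjamini-Hochberg adjustment per comparison. Correlations used Python 3.11.15 with scipy 1.17.1. The scripts were tested on simulated data.

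All 8 keratins were tested in every comparison. Where the text names only some of them, they are often those with the largest differences. Also named are up to 3 genes per marker list with the largest differences, the 3 genes most like each keratin and the 6 most like each layer's mean. Members, lists and tests were chosen with earlier results of these data known. The promoter window and motifs were chosen after the values were seen. Same-numbered replicates were not treated as pairs in the main fit. Correlations of their deviations ran from -0.60 to 0.65, with medians of -0.019, -0.027 and 0.10 for replicates 1, 2 and 3. Arrays of unlike number were not compared, so these values cannot decide whether replicates pair.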

Additional observations from a re-analysis of the deposited data

How the results depend on the processing

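No keratin was called after irradiation under any alternative run: no filter or a 50th percentile filter (which drops Krt15), the mean of all probe sets, quantile normalization, a trended and robust eBayes, array weights, only the groups compared, the epithelial mean as a covariate, a replicate block, and leaving out the 2 least alike arrays or each array in turn. With the replicate number as a block, 2 week comparisons were called, both Krt7, and 0 after irradiation. The count of 2 between weeks became 5 with the covariate, adding Krt8 and Krt18 at week 4 and Krt17, lower, at week 12. With single arrays left out it was 2 to 4. Without sham replicate 1 of week 1 Krt8 was added in both comparisons. Without sham replicate 3 of week 12 Krt8 and Krt18 were added at week 12. The main fit called 25.8% and 35.5% of all genes from week 1 to weeks 4 and 12. The shares under these settings are not given here, so the added calls cannot be set against them. Array weights called 2 keratins in the F test over 12 groups, which are not named here. The main fit called no keratin in that test, where 15.8% of all genes were called. The share of all genes called with array weights is not given here, so these 2 calls cannot be set against it. Taking out the epithelial mean, an alternative chosen after seeing the data, left 17 correlated pairs, with medians of 0.583, 0.726 and 0.153. The median within basal pairs was 0.690 without the 2 least alike arrays.

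Single values were recomputed for week 4, for gamma rays at week 1 and for those with an unadjusted p under 0.05, a choice made after seeing them. Signs turned as follows. With the covariate, gamma rays at week 4 gave Krt7 -0.148, Krt8 -0.0219, Krt18 -0.207 and Krt19 -0.0948, 30 cGy Si gave Krt7 -0.0115 and Krt18 -0.178, 10 cGy Si gave Krt15 -0.105, and gamma rays at week 1 gave Krt8 0.0987 and Krt19 0.316. Array weights gave Krt15 -0.0861 (10 cGy Si, week 4) and Krt14 -0.0292 (gamma rays, week 1). Without the 2 least alike arrays, 10 cGy Si gave Krt15 -0.171 and Krt17 -0.0666, and gamma rays at week 1 Krt5 -0.156 and Krt14 -0.115. With single arrays left out, gamma rays at week 1 gave Krt5 -0.156 to 0.659, Krt14 -0.115 to 0.528, Krt8 -0.749 to 0.132 and Krt19 -0.654 to 0.297, gamma rays at week 4 Krt7 -0.0397 to 0.287 and Krt18 -0.141 to 0.356, and 10 cGy Si at week 4 Krt15 -0.213 to 0.182, Krt17 -0.0666 to 0.469 and Krt18 -0.0629 to 0.321. The marker lists were also recomputed without single arrays, an alternative chosen after seeing the data. The cause of these changes was not tested.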
